A study of Mus musculus with 5 samples.

Results

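The 9 interferon-induced genes described here are Ifi204, Ifi207, Ifi27l2a, Bst2, Isg15, Ifi35, Irf7, Ifit1 and Ifit3. They were chosen by name from the 32285 genes counted, and all 9 were found in the count tables. The cells are 3T3-L1, an established mouse fibroblast line that turns into adipocytes when confluent cultures receive dexamethasone, insulin and isobutylmethylxanthine. Single-cell RNA libraries were made on day 3 and day 6 of differentiation from cultures given 10 µg/mL P-G3, a positively charged PAMAM polymer, from the start of induction. Libraries of day 3 and day 6 cultures without polymer, and of undifferentiated cells on day 0, complete the set. Each of the 5 groups is 1 library of this 1 cell line, so differences between groups have no replicate check and no test was made. All intervals cover counting error only. The design compares polymer-treated with untreated cells on each day, and later with earlier days among untreated cells.

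Interferons are secreted proteins released when a cell detects viral nucleic acid. They bind receptors that switch on JAK kinases, which activate transcription factors that bind the interferon-stimulated response element in the promoters of many genes, including several of the 9. Fibroblasts and preadipocytes carry the receptors for type I and type II interferons, and many of these genes also keep a low basal level without added interferon.

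The members play different roles in this response. Ifi204 and Ifi207 belong to the PYHIN family of nuclear nucleic-acid-binding proteins and lie side by side on chromosome 1 (GRCm38, chr1:173747293-173766943 and chr1:173723427-173741747, both on the minus strand). Ifit1 and Ifit3 encode tetratricopeptide repeat proteins that bind foreign RNA or partner proteins, and both lie on the plus strand of chromosome 19 (chr19:34640871-34650009 and chr19:34583531-34588731). Isg15 (chr4:156199424-156200818) encodes a ubiquitin-like modifier, and Bst2 (chr8:71534255-71537456) encodes tetherin, which holds budding enveloped viruses at the cell surface. Irf7 (chr7:141262706-141266481) encodes a transcription factor that drives interferon genes. Ifi35 (chr11:101448407-101458698) encodes a leucine zipper protein that pairs with Nmi, and Ifi27l2a (chr12:103442167-103443680) a small hydrophobic protein. All 9 are annotated as protein-coding.

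The promoters of 7 of the 9 members were found in RefSeq (GRCm38.p6), each as 250 bases before and 50 bases after the annotated start. The core of the interferon-stimulated response element, read as GAAA, any 2 bases and GAAA again, was searched on both strands. It occurred in 5 of the 7, against 3.44% of all 32851 promoters of the same length. The 250 bases before the start of these 5 genes are shown 5′ to 3′ on the strand of the gene because they carry letters that match the core of this element. Capitals mark this core or its reverse complement, and overlapping matches run together in Isg15, with 3 matches, and in Bst2, with 2.

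Ifit1: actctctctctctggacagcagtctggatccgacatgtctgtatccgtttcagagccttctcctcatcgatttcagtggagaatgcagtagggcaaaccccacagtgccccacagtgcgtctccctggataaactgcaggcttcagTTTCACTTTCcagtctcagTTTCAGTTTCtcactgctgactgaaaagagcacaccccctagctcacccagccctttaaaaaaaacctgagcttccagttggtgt

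Ifit3: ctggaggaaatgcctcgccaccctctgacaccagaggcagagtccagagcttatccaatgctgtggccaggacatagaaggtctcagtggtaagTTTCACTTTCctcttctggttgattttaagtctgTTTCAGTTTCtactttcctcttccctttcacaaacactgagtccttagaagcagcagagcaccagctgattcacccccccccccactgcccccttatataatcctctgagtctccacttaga

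Isg15: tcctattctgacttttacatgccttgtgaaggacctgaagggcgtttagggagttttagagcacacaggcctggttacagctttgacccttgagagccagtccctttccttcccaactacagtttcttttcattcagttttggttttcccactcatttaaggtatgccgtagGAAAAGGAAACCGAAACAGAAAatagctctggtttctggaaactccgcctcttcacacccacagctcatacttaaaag

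Bst2: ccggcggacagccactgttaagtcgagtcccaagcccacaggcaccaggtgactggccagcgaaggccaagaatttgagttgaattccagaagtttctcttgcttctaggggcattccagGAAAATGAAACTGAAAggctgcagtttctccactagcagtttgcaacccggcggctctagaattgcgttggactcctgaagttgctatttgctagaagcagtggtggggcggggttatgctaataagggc

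Ifi207: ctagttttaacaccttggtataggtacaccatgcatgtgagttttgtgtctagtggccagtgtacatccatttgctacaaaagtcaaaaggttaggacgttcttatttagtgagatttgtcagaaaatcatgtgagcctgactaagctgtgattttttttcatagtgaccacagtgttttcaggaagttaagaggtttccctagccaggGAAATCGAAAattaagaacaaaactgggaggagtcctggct

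The stretches shown are chr19:34640639-34640888 for Ifit1, chr19:34583279-34583528 for Ifit3, chr4:156200819-156201068 for Isg15, chr8:71537473-71537722 for Bst2 and chr1:173741810-173742059 for Ifi207. Ifit1 and Ifit3 each hold 2 separate matches, the nearest starting 85 bases before the start of Ifit1 and 122 bases before that of Ifit3. The match of Ifi207 starts 41 bases before its start. The windows of Irf7 and Ifi35 hold no such letters. The shorter letters TTCNNNGAA, the core of the gamma-activated sequence, occurred in the windows of Bst2 and Ifi35 and in 8.30% of all promoters, again on both strands. These are matches of letters and not measured binding.

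Barcodes with fewer than 500 detected genes or more than 20% mitochondrial UMIs were dropped, which left between 2468 and 3893 cells and between 88432894 and 179221992 UMIs (unique molecular identifiers, each marking 1 captured RNA molecule) per library. Of 16713 kept cells, 62 carry a barcode that also occurs in another library, from 31 barcodes. The day 6 libraries stand apart in depth, since 47.0% of the kept cells with P-G3 and 37.6% of those without polymer held under 10000 UMIs, against 0.872% to 5.65% in the other 3 libraries. Levels are given as CPM, the UMIs of a gene scaled to a library total of 1000000. Fabp4, an adipocyte fatty acid carrier, was lowest on day 0 and highest on day 6, with 30.4 CPM on day 0, 10918 on day 3 with P-G3, 6964 on day 3 without polymer, 28993 on day 6 with P-G3 and 22929 on day 6 without polymer. Of 9 immune cell markers, 3 or 4 were at 0 in each library and all 9 together summed to between 2.43 and 4.0 CPM. The 4 endothelial markers summed to at most 1.31 CPM. The 4 epithelial markers summed to 16.7 CPM on day 6 with P-G3 and 8.67 CPM on day 6 without polymer, and their part in the results was not tested. UMIs were summed over kept cells, and ratios are log2 of CPM plus 1 over CPM plus 1, which understates differences of low genes. A gene is called higher or lower at 2-fold or more with at least 5 CPM in either library. Levels of different genes are not compared, since a 3′ assay captures transcripts unequally.

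During differentiation without polymer, 3 members moved far and in different directions, while the log2 ratios of the other 6, with 1 CPM added, stayed within 2-fold of day 0 on day 3. The CPM of Bst2 without the added 1 was just past 2-fold lower. On day 3 against day 0, Ifi204 and Ifi207 were called higher and Ifi27l2a lower. In that comparison 6.4% of 9454 genes were called higher and 3.99% lower. Over all 9 members the median log2 ratio was -0.10, and over all genes tested, which are those past the floor, it was 0.08. Over the 6 members past the floor it was -0.38.

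Ifi204 had 22.3 CPM on day 0, 121 CPM on day 3 without polymer and 39.1 CPM on day 6 without polymer. Its log2 ratio was 2.39 on day 3 over day 0. On day 6 over day 3 it was -1.60, and Ifi204 was the only member called in that comparison, where 6.97% of 9583 genes were called higher and 5.92% lower. Day 3 was thus its highest untreated library, and the counting intervals of the 3 days do not overlap.

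Ifi207 had 0.932 CPM on day 0, 29.3 CPM on day 3 without polymer and 20.4 CPM on day 6 without polymer. Its log2 ratio was 3.97 on day 3 over day 0 and 3.47 on day 6 over day 0. The CPM ratio itself, without the added 1, has 95% log2 limits of 4.74 and 5.22 on day 3 over day 0. Unlike its neighbour Ifi204, Ifi207 stayed within 2-fold between day 6 and day 3, with a log2 ratio of -0.50.

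Ifi27l2a ran the other way, with 48.3 CPM on day 0, 3.22 CPM on day 3 without polymer and 4.86 CPM on day 6 without polymer. Its log2 ratio was -3.55 on day 3 over day 0, lower than all but 0.0740% of the genes tested. On day 6 over day 0 it was -3.07. Ifi207 and Ifi27l2a were the members called on day 6 over day 0, where 16.2% of 9693 genes were called higher and 10.7% lower.

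Bst2 and Isg15 were lower after induction without polymer, and came closest to 2-fold on day 3 for Bst2 and on day 6 for Isg15. Bst2 had 37.4 CPM on day 0, 18.4 CPM on day 3 without polymer and 20.5 CPM on day 6 without polymer. Its log2 ratio of -0.98 on day 3 over day 0 just missed the call, and with TMM scaling or median-of-ratios scaling (library scalings that discount the genes that differ most), a pseudocount of 0.1 CPM or the trend with transcript length removed it passed. Isg15 had 10.6 CPM on day 0, 6.38 CPM on day 3 without polymer and 4.92 CPM on day 6 without polymer. Its log2 ratio was -0.65 on day 3 over day 0 and -0.97 on day 6 over day 0, and the day 6 ratio passed 2-fold with either scaling. For both genes day 0 was the highest of all 5 libraries.

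The remaining 4 members were not called on either day. Ifi35 had 20.8 CPM on day 0, 19.3 CPM on day 3 without polymer and 23.6 CPM on day 6 without polymer. Irf7 had 1.07, 0.923 and 1.70 CPM in the same libraries and time order, from 170, 129 and 150 UMIs. Ifi35 stayed nearly level, and the CPM ratio of Irf7 on day 6 over day 3 had 95% log2 limits of 0.53 and 1.23. Ifit1 had 1.23, 1.88 and 0.317 CPM from 196, 263 and 28 UMIs, and Ifit3 had 0.599, 0.644 and 0.520 CPM from 95, 90 and 46 UMIs. Irf7, Ifit1 and Ifit3 lie under the 5 CPM floor in every library and could not be called. Of the last 500 bases of Ifit3, 14.9% of 50-base stretches also occur in Ifit3b, so reads of this pair may be split.

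**Figure D1:**
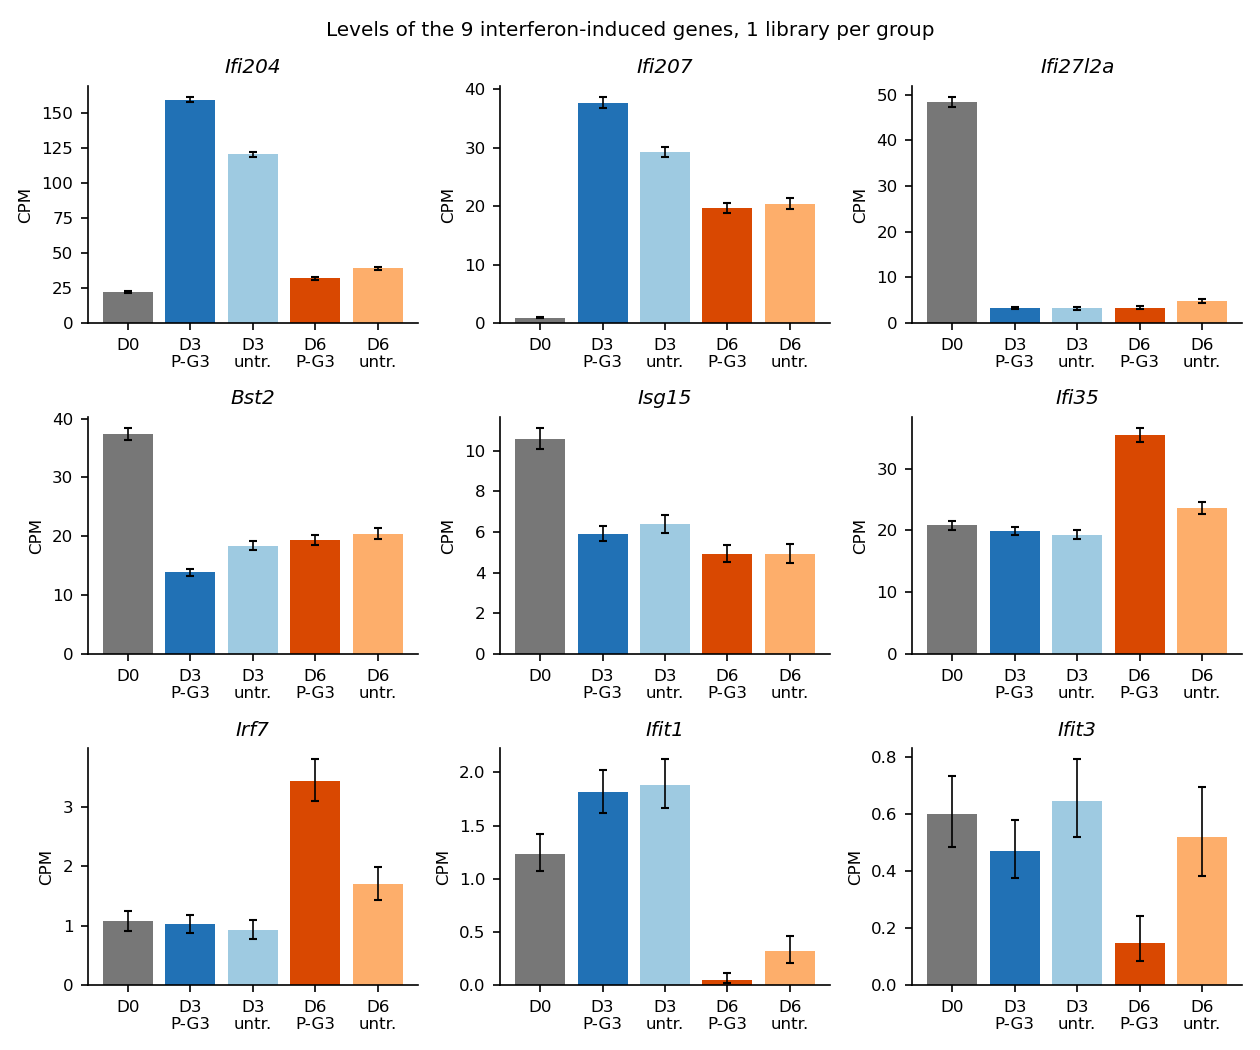
Levels of the 9 genes in CPM (vertical axes, each with its own scale) in the 5 libraries (horizontal axes), with exact Poisson 95% intervals as error bars. Ifi204 and Ifi207 are highest on day 3, Ifi27l2a, Bst2 and Isg15 on day 0, and Ifi35 and Irf7 on day 6 with P-G3.

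Setting P-G3 cultures against polymer-free cultures asks whether the polymer moved these genes. No member was called in either polymer comparison. With P-G3, 0.109% of 9215 genes were called higher and 2.38% lower on day 3, and 0.109% of 9137 were called higher and 4.12% lower on day 6. The median log2 ratio over all genes tested was -0.23 on day 3 and -0.34 on day 6, and over the 9 members it was 0.03 and -0.08. Over the members past the floor, 5 on day 3 and 4 on day 6, it was 0.045 and -0.064. The ratios ran with transcript length, with a Spearman coefficient across genes of -0.60 on day 3 and -0.62 on day 6, so ratios after subtracting the trend are given beside the main ones. TMM scaling brings the medians of all genes to -0.0024 and -0.023.

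On day 3, Ifi204 had 160 CPM with P-G3 and 121 CPM without, a log2 ratio of 0.40, higher than 97.0% of the genes tested. After subtracting the length trend it was 0.53. Ifi207 had 37.8 CPM with P-G3 and 29.3 CPM without, a log2 ratio of 0.36, or 0.67 after subtracting the trend. The P-G3 library was the higher of the pair for both PYHIN genes under each of the 10 alternative settings. Bst2 had 13.9 CPM with P-G3 and 18.4 CPM without, a log2 ratio of -0.39, below 0 in all 10 alternatives as well. Ifi35 had 19.9 CPM with P-G3 and 19.3 CPM without. Isg15 had 5.91 CPM with P-G3 and 6.38 CPM without, and Ifi27l2a had 3.30 CPM with P-G3 and 3.22 CPM without. The counting intervals of these 3 ratios include 0.

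On day 6, Ifi35 had 35.4 CPM with P-G3 and 23.6 CPM without. Its log2 ratio was 0.56, higher than 98.4% of the genes tested, and 0.42 after subtracting the length trend. It was the highest of its 5 libraries. Within cells of under 10000 UMIs, Ifi35 had 34.0 CPM with P-G3 and 23.7 CPM without, and within cells of 60000 or more it had 34.2 CPM with P-G3 and 21.3 CPM without. The difference was therefore present at both ends of the depth range. Its annotated antisense neighbour Gm11626 had no UMI in any library.

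Irf7 also had its highest level on day 6 with P-G3, at 3.43 CPM from 369 UMIs, against 1.70 CPM from 150 UMIs without polymer. The CPM ratio has 95% log2 limits of 0.74 and 1.30, but Irf7 lies under the floor and was not called. In cells of under 10000 UMIs it had 5.28 CPM from 23 UMIs with P-G3 and 1.75 CPM from only 4 UMIs without. In cells of 60000 or more it had 3.64 CPM from 215 UMIs with P-G3 and 1.77 CPM from 89 UMIs without. Irf7 overlaps the antisense gene Phrf1 by 45 bases, and the strand used in counting is not stated. Phrf1 had 18.5 CPM on day 6 with P-G3 and 27.6 CPM without, the opposite order.

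Before any adjustment, the PYHIN genes, Bst2 and Isg15 differed little on day 6. Ifi204 had 32.0 CPM with P-G3 and 39.1 CPM without, a log2 ratio of -0.28 that lies close to the median of all genes and comes to -0.03 after subtracting the length trend. Ifi207 had 19.7 CPM with P-G3 and 20.4 CPM without, a log2 ratio of -0.05. That ratio depended on the setting, at 0.40 after subtracting the trend, 0.27 with TMM scaling and 0.32 with median-of-ratios scaling. Bst2 had 19.4 CPM with P-G3 and 20.5 CPM without, and Isg15 had 4.91 CPM with P-G3 and 4.92 CPM without. After subtracting the trend, the log2 ratio was -0.24 for Bst2 and -0.16 for Isg15. Ifi27l2a had 3.39 CPM with P-G3 and 4.86 CPM without, and 1 cell of the P-G3 library held 22.0% of its 364 UMIs. Ifit1 had 5 UMIs with P-G3 and 28 UMIs without, and Ifit3 had 16 UMIs with P-G3 and 46 without, but 1 untreated cell held 20 UMIs of each. Without that cell, Ifit1 was at 0.0465 CPM with P-G3 and 0.0906 CPM without, and Ifit3 at 0.149 CPM with P-G3 and 0.294 CPM without.

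**Figure D2:**
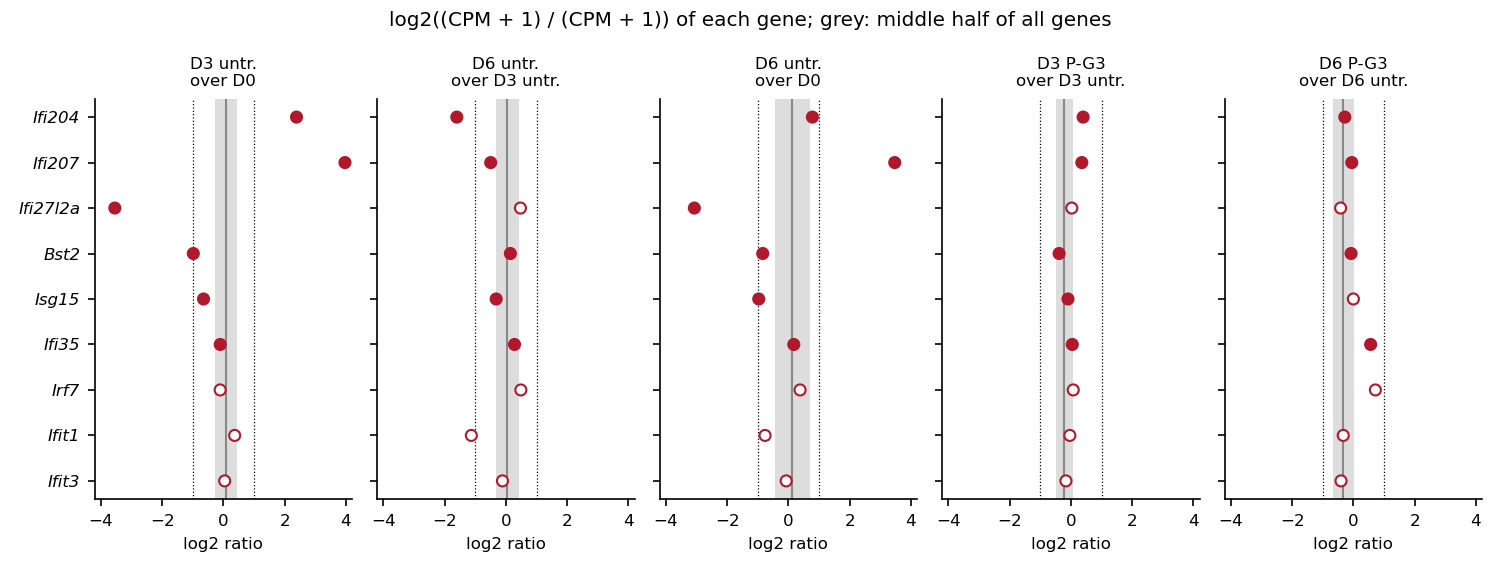
Log2 ratio of each gene (horizontal axes) in the 5 comparisons; filled points reach 5 CPM in either library and open points do not, the grey band spans the middle 50% of all genes tested with a line at their median, and dotted lines mark 2-fold. Ifi27l2a, Ifi204 and Ifi207 lie far outside the band on day 3 over day 0, and no filled point passes 2-fold in the polymer comparisons.

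The share of cells in which each gene was detected was read after thinning every cell to 10000 UMIs, which leaves out shallower cells (28 on day 0, 218 on day 3 with P-G3, 203 on day 3 without polymer, 1665 on day 6 with P-G3 and 927 on day 6 without polymer). On day 0, 20.4% of cells had Ifi204. On day 3 it was found in 71.6% of cells with P-G3 and 63.0% without, and on day 6 in 27.5% with P-G3 and 32.1% without. Unthinned, the day 3 shares were 92% with P-G3 and 87.6% without. Ifi204 was thus spread over most cells on day 3 rather than held by a few. On day 0, 28.3% of cells had Ifi27l2a, against between 1.49% and 3.50% in the other 4 libraries, and the unthinned share was 53.7% on day 0. On day 6, Ifi35 was detected in 28% of cells with P-G3 and 18.9% without. Unthinned, its shares were 41.1% with P-G3 and 40.6% without. After thinning, Ifit1 never passed 0.560% of cells and Ifit3 never passed 0.796%, and unthinned their highest shares were 1.25% and 2.34%, both on day 0. The libraries hold a single cell line, so no cell type that lacks these genes was there to set the level of free RNA.

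**Figure D3:**
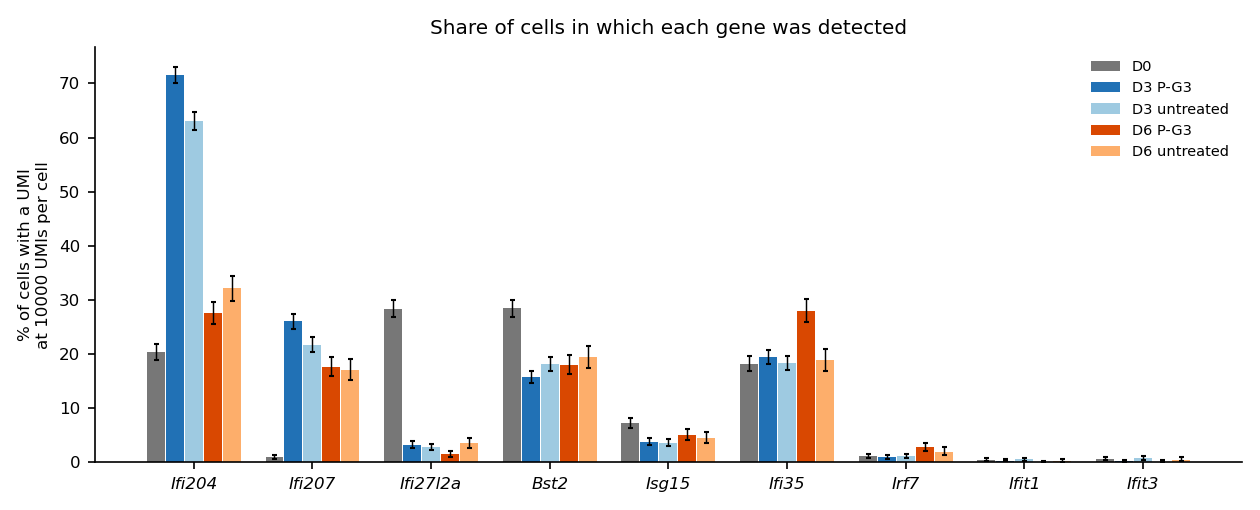
Share of cells with at least 1 UMI of each gene (vertical axis, percent) after thinning each cell to 10000 UMIs, by library, with exact Clopper-Pearson 95% intervals as error bars. Ifi204 reaches 71.6% of cells on day 3 with P-G3 and 63.0% without, while Ifit1 and Ifit3 stay under 1% in every library.

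Within each differentiating library, cells of at least 10000 UMIs were split into tertiles by their share of UMIs from 16 adipocyte genes, none of which is a member. These are ranges of a score and not cell types, and between 10.4% and 20.4% of the cells lie within 10% of a bound. Bounds were set within each library, so a tertile spans different shares with and without polymer. On day 6 the bounds were 24769 and 47844 CPM with P-G3, and 16680 and 40421 CPM without. On day 3 the bounds were 2342 and 9501 CPM with P-G3, and 1172 and 3738 CPM without. Between 4 and 5 of the 9 members were called lower in the high than in the low tertile of each library, and none higher, with 6 or 7 of the 9 past the floor. Of all genes, 8.13% were called lower and 8.04% higher on day 3 with P-G3, against 7.89% lower and 5.57% higher in the untreated library of that day. On day 6 the shares were 5.61% lower and 4.84% higher with P-G3, against 10.6% lower and 7% higher in untreated cells. The median log2 ratio over the 9 members was -1.33 with P-G3 and -0.78 without on day 3. On day 6 it was -1.31 with P-G3 and -0.90 without. Over all genes past the floor the median lay between -0.06 and 0.08, while the member medians also take members under the floor. Without the cells of 5 or more Ifit1 UMIs, the day 3 medians of the members were -0.40 with P-G3 and -0.49 without.

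Bst2 and Isg15 were called lower in all 4 libraries. On day 3 the Isg15 values turn on the cells with 5 or more Ifit1 UMIs. With them, the high and low tertile had 3.31 and 13.5 CPM with P-G3, and 3.39 and 12.6 CPM without. When those cells were left out, they had 2.88 and 6.49 CPM with P-G3, a log2 ratio of -0.95 that was not called, and 2.43 and 7.25 CPM without, a log2 ratio of -1.27 that was. Bst2 was called lower either way. On day 6 with P-G3, Bst2 had 42.3, 16 and 8.86 CPM in the low, middle and high tertile, and on day 6 without polymer 47.2, 16.1 and 8.32 CPM. Isg15 had 8.96, 4.07 and 3.02 CPM with P-G3 on day 6 and 8.81, 4.87 and 2.60 CPM without. Both fell across the tertiles, and the values with and without polymer lay close together. The high tertile also held deeper cells, with a median of 66052.5 UMIs against 38215.5 in the low tertile on day 6 without polymer, and the part of depth in this was not tested.

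The PYHIN genes were called lower in the high tertile on day 6 and were not called on day 3. Ifi207 had 48.7, 12.4 and 9.04 CPM across the tertiles with P-G3 on day 6 and 52.2, 14.4 and 6.69 CPM without, and Ifi204 had 63.1, 25 and 20.2 CPM with P-G3 and 82.8, 31.0 and 20.3 CPM without. On day 3 the middle tertile was highest for both, for example 164, 200 and 130 CPM of Ifi204 with P-G3 and 113, 145 and 111 CPM without. The difference between the days was not tested. With P-G3, Ifi204 on day 3 was above the untreated library in each tertile.

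Ifi35 and Irf7 were not called in any library. Ifi35 had 34.9, 36.9 and 34.4 CPM across the tertiles on day 6 with P-G3 and 25.8, 24.8 and 21.2 CPM on day 6 without polymer, so the higher level with polymer was present in each tertile. Irf7 had 2.02, 2.94 and 4.59 CPM with P-G3 and 1.37, 1.68 and 1.92 CPM without. Ifi27l2a was called lower in the high tertile in all but day 6 untreated, where it had 4.42 CPM in the high and 6.73 CPM in the low tertile. Ifit1 was called lower on day 3, with 0.280 CPM in the high and 7.56 CPM in the low tertile with P-G3, and 0.426 CPM in the high and 5.18 CPM in the low tertile without, sums that rest on the few Ifit1 cells described next. Without the cell with most Ifit1 UMIs the low tertile was at 3.33 CPM with P-G3 and 3.75 CPM without, under the floor, and Ifit1 was not called. A split by 14 G2/M cell cycle genes called no member except Ifit1 on day 3 with P-G3, with 1.17 CPM in the high and 5.25 CPM in the low tertile. Without the cell with most Ifit1 UMIs the low tertile was at 1.58 CPM, and Ifit1 was not called. In that library 5.93% of genes were called higher and 1.65% lower. By the same split, 5.15% of genes were called higher and 0.645% lower on day 0. These shares were 5.98% and 1.93% on day 3 without polymer. On day 6 they were 2.17% and 0.43% in the P-G3 library, against 2.49% and 0.246% in the untreated library. The median log2 ratio over the 9 members was -0.47 on day 0, -0.64 on day 3 with P-G3 and -0.36 on day 3 untreated. Over all genes past the floor it was 0.0041, 0.050 and -0.025. On day 6 the member median was -0.0077 with P-G3 and -0.22 without, beside 0.076 and 0.079. Without the cells of 5 or more Ifit1 UMIs, the day 3 member median with P-G3 was -0.20.

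**Figure D4:**
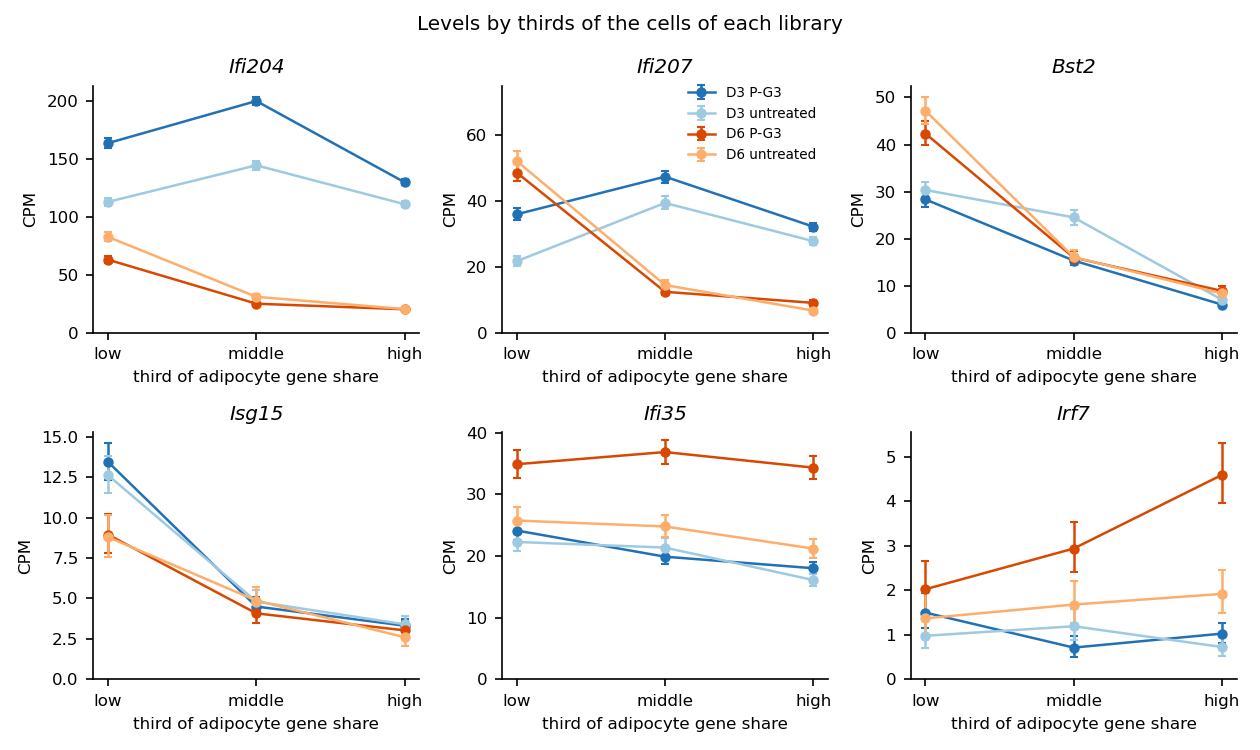
Levels of 6 genes (CPM, vertical axes) in the low, middle and high tertile of adipocyte gene share (horizontal axes) in the 4 differentiating libraries, with exact Poisson 95% intervals as error bars. Bst2 and Isg15 decline in all 4 libraries, Ifi204 and Ifi207 decline on day 6, and Ifi35 and Irf7 on day 6 are higher with P-G3 in each tertile. Tertile bounds differ between libraries.

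Ifit1 and Ifit3 were held by few cells. Ifit1 was detected in 104 of 16713 cells, which were 40 on day 0, 19 on day 3 with P-G3, 36 on day 3 without polymer, 4 on day 6 with P-G3 and 5 on day 6 without polymer. A threshold of 5 Ifit1 UMIs, set after the values were seen, was reached by 24 cells or 0.144%. These were 5 cells on day 0, 9 on day 3 with P-G3, 9 on day 3 without polymer, 0 on day 6 with P-G3 and 1 on day 6 without polymer. On day 3 they made up 0.231% of cells with P-G3 (exact 95% limits 0.106% and 0.438%). Without polymer they made up 0.25% (0.115% and 0.475%). These limits cover the counting of cells only, and 1 library per arm allows no test between treatments. The count of 0 on day 6 with P-G3 allows a share of up to 0.0846% by the limit of 3 cells, with an exact 95% upper limit of 0.104%, and that library is also the one with most shallow cells. The 24 cells held 77.0% of all Ifit1 UMIs on day 0, 95.7% on day 3 with P-G3 and 86.3% on day 3 without polymer.

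Isg15 was found in all 9 such cells of each day 3 library. On day 3 with P-G3, the 9 cells had 870 CPM of Isg15 against 4.17 CPM in all other cells of that library. On day 3 untreated, the 9 cells had 919 CPM of Isg15 against 4.12 CPM in the others. Ifit3 was at 153 CPM in the 9 cells with P-G3 against 0.162 CPM in the others, and at 107 CPM in the 9 untreated cells against 0.380 CPM in the others. A single cell held 41 of the 55 Ifit3 UMIs of the 9 cells with P-G3 and a single cell 22 of the 37 in untreated cells. Without that cell the level was 45.0 CPM with P-G3 and 47.1 CPM without. Cxcl10, an interferon-induced chemokine, came almost wholly from 1 cell in each library, with 134 of 148 UMIs with P-G3 and 37 of 38 in untreated cells, and it was found in 3 of the 9 cells with P-G3 and 2 of the 9 untreated cells. Ifi204 differed far less, with 128 CPM in the 9 cells with P-G3 against 160 CPM in the others, and 194 CPM in the 9 untreated cells against 121 CPM in the others. Fabp4 was at 3029 CPM in the 9 cells with P-G3 against 10934 CPM in the others, and without the cell with most Fabp4 at 955 CPM. In the 9 untreated cells it was at 3575 CPM against 6973 CPM in the others, and without the cell with most Fabp4 at 483 CPM. No cell was left out of the others, so the 955 and 483 CPM have no like value to be set against. These sums rest on 9 cells a library.

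Leaving out the 24 cells changed the course of Isg15. Its level without them was 9.99 CPM on day 0, 4.12 CPM on day 3 without polymer and 4.63 CPM on day 6 without polymer. Both Isg15 and Bst2 then passed 2-fold lower on day 3. The log2 ratio of Isg15 on day 6 over day 3 was then 0.14 in place of -0.32. Cells with 10 or more Isg15 UMIs numbered 24 on day 0, 15 on day 3 with P-G3, 13 on day 3 without polymer, and 2 in each day 6 library. Ifit1 was also found in 12 of the 24 on day 0, 13 of the 15 on day 3 with P-G3 and 11 of the 13 on day 3 without polymer. The Fano factor of Isg15, its variance over its mean across thinned cells, was 3.54 on day 0, 5.88 on day 3 with P-G3, 5.59 on day 3 without polymer, 1.27 on day 6 with P-G3 and 1.11 on day 6 without polymer. Among genes at 5 to 200 CPM, the 95th percentile of this factor lay between 1.29 and 1.69. The factor of Isg15 thus lay above that percentile on days 0 and 3 and under it on day 6. In both day 6 libraries Isg15 was itself just under 5 CPM.

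A single cell of the day 3 library with P-G3 stood out. It held 48393 UMIs, of which 167 were Ifit1, 41 Ifit3, 87 Isg15, 134 Cxcl10, 57 Ccl5 and 17 Ifnb1, the gene of interferon beta. These 17 are all the Ifnb1 UMIs of the 5 libraries, and the cell held 51.4% of the Ifit1 UMIs of its library. The other genes of the interferon ligand family, 21 with Ifnb1, gave 3 UMIs on day 0, 1 on day 3 with P-G3, 3 on day 3 without polymer, 11 on day 6 with P-G3 and 7 on day 6 without polymer, never more than 1 in a cell. Most on day 6 came from Ifnk, with 10 with P-G3 and 6 without. The Ifnb1 cell was picked after the values were seen, and 1 cell in 1 library carries no comparison between treatments.

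**Figure D5:**
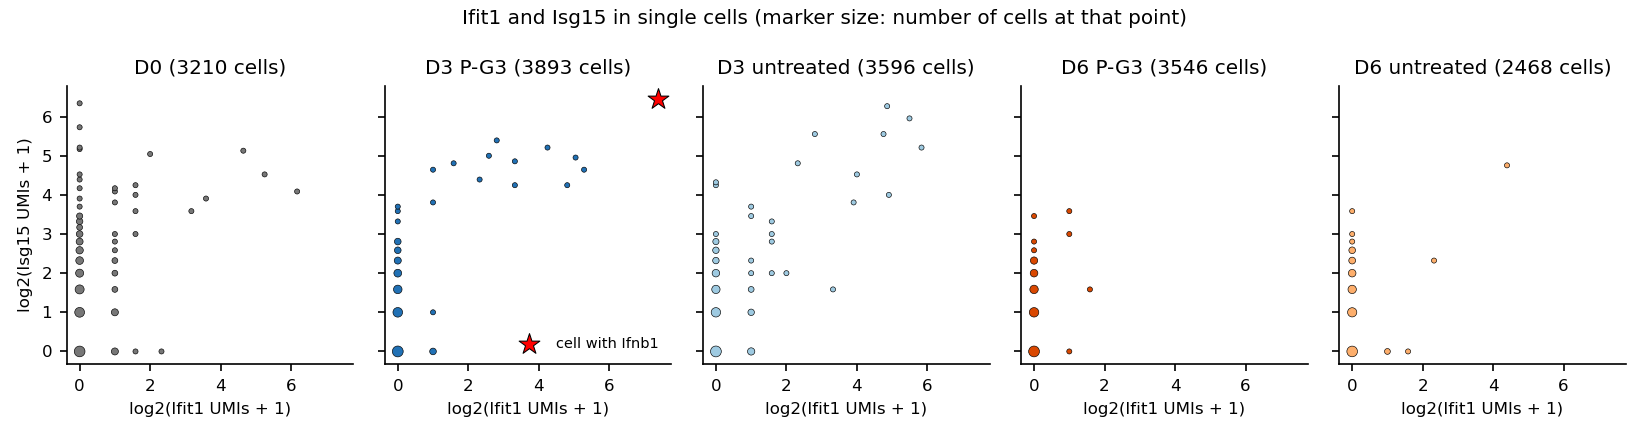
Isg15 (vertical axes) against Ifit1 (horizontal axes) in single cells of each library, both as log2 of UMIs plus 1, with marker size growing with the number of cells at a point and a star for the cell with Ifnb1. Day 0 and day 3 hold small groups of cells high in both genes, and day 6 holds 1 such cell, in the untreated library.

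Across cells thinned to 10000 UMIs, Ifit1 and Isg15 had a Pearson coefficient of 0.26 on day 0, 0.55 on day 3 with P-G3 and 0.60 on day 3 without polymer, against -0.0052 on day 6 with P-G3 and 0.08 on day 6 without polymer. Ifit1 and Ifit3 had 0.21, 0.44, 0.49, -0.00092 and 0.35 in that order. These coefficients rest on between 1 and 19 cells with Ifit1 per library, all sharing their library. Ifi204 and Ifi207 had 0.10 on day 0, 0.09 on day 3 with P-G3 and 0.14 on day 3 without polymer, and 0.27 on day 6 with P-G3 and 0.21 on day 6 without polymer. A Pearson coefficient with the summed score of the 9 members was also computed in each library. It was ranked over the 7617 other genes with at least 5 CPM in every library. The highest mean over the 5 libraries was 0.28 for Ifitm3, an interferon-induced membrane protein, followed by Ptn, Mmp2 and Col1a2 at 0.22. The next 6 were S100a4, Cst3, Col1a1, Timp2, Tmem176b and Sparc, down to 0.20. Each of these genes had its highest coefficients in the day 6 libraries. Ifitm3 had 0.21 on day 0, against 0.39 on day 6 with P-G3 and 0.41 on day 6 without polymer. S100a4 had -0.03 on day 0, against 0.39 on day 6 with P-G3 and 0.37 on day 6 without polymer. The members differed when taken singly, with the other members also ranked. The highest mean coefficient was with Vcan for Ifi204, Mmp2 for Ifi207 and Ifitm3 for Bst2. For Ifit1, Ifit3 and Irf7 the highest were with one another and Isg15.

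The wider interferon system was read from lists of its parts. Among receptor and signalling genes, Ifngr1, a chain of the interferon gamma receptor, was called higher on day 3 and on day 6, with 24.6 CPM on day 0, 58.8 CPM on day 3 without polymer and 109 CPM on day 6 without polymer. Jak2, a kinase bound to that receptor, had 9.80, 13.0 and 28.4 CPM. With P-G3 on day 6, Ifnar1, a chain of the type I receptor, had 8.28 CPM against 17.9 CPM without. Its log2 ratio of -1.03 was called lower, but it came to -0.72 with TMM scaling, -0.67 with median-of-ratios scaling and -0.57 after subtracting the length trend.

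Among sensors and adaptors, Tmem173, which encodes STING, had 12.8 CPM on day 0, 5.07 CPM on day 3 without polymer and 2.58 CPM on day 6 without polymer. Cgas, the DNA sensor that activates STING, had 9.12, 6.77 and 2.37 CPM. Both were called lower on day 6 over day 0, with log2 ratios of -1.95 and -1.58. Mavs, the adaptor of the RNA sensors, was called higher, with 27.0 CPM on day 6 without polymer against 10.3 CPM on day 0, as was Tlr4, with 5.48 CPM on day 6 without polymer against 1.73 CPM on day 0. Of the 8 list genes past the floor, 2 were higher and 2 lower, beside 16.2% and 10.7% of all genes. None of the interferon regulatory factors, of which 3 passed the floor, was called in any comparison. None of the sensors and adaptors was called with P-G3, with 8 past the floor on day 3 and 6 on day 6. Of all genes, 0.109% were called higher with P-G3 on each day, and 2.38% on day 3 and 4.12% on day 6 lower.

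Of 71 other interferon-stimulated genes in the tables, 31 passed the floor on day 6 over day 0, with 5 called higher and 9 lower, beside 16.2% of all genes called higher and 10.7% lower. Ifitm3 had 898 CPM on day 0, 522 CPM on day 3 without polymer and 180 CPM on day 6 without polymer, and it was called lower. Isg20, an exonuclease, had 10.8, 4.80 and 30.2 CPM, and Znfx1, an RNA helicase, had 5.70, 11.3 and 26.7 CPM. With P-G3, none of the 25 that passed the floor on day 3 and none of the 24 on day 6 was called. Beside them, 0.109% of all genes were called higher on each day, and 2.38% on day 3 and 4.12% on day 6 lower. Counts of 0 in a list this short lie near these shares. The median of that list was -0.31 on day 3 and -0.20 on day 6, beside -0.23 and -0.34 over all genes. Isg20 had 46.9 CPM on day 6 with P-G3 and 30.2 CPM without, a log2 ratio of 0.62.

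Of 16 genes of MHC class I presentation, which interferons also induce, 8 passed the floor on day 3 over day 0, where H2-K1 and H2-D1 were called lower and none higher, beside 3.99% and 6.4% of all genes. H2-K1 had 91.1 CPM on day 0, 33.6 CPM on day 3 without polymer and 67.1 CPM on day 6 without polymer, and H2-D1 had 138, 63.1 and 78.5 CPM. On day 6 over day 0, beside 16.2% of all genes called higher and 10.7% lower, 2 of the 9 past the floor were called higher and 0 lower. These were the transporter gene Tap2, with 7.63 CPM on day 6 without polymer against 2.60 CPM on day 0, and H2-T23, with 11.6 CPM on day 6 without polymer against 4.32 CPM on day 0. No gene of this list was called with P-G3, with 7 past the floor on day 3 and 8 on day 6. Of all genes, 0.109% were called higher with P-G3 on each day, and 2.38% on day 3 and 4.12% on day 6 lower. Among 7 negative regulators, 6 passed the floor on day 6 over day 0. Of these, 2 were called higher and 1 lower, beside 16.2% and 10.7% of all genes. Socs1, an inhibitor of JAK signalling, had 11.3, 5.40 and 3.15 CPM over the untreated course and was called lower on day 6. The phosphatase gene Ptpn6, with 1.69, 5.76 and 7.67 CPM, and Trim24, with 31.5, 48.5 and 77.2 CPM, were called higher on day 6. Ifi211, a further PYHIN gene, was also highest on day 3 of the untreated course, with 5.09, 14.9 and 5.04 CPM. On day 3 it had 23.6 CPM with P-G3 and 14.9 CPM without, a log2 ratio of 0.63 that was not called. Ifi27, a relative of Ifi27l2a, had 168, 94.5 and 154 CPM over that course and was not called.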

How the data were processed

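The data are 10x Genomics Chromium single-cell 3′ libraries of 3T3-L1 cells, 1 library per group. The authors deposited unnormalized UMI counts for each gene in each barcode. The submitters' processing notes list Cell Ranger 3.1.0 and the GRCm38 build, while the file headers name Cell Ranger 5.0.1; the strand setting is not given in the sources used here. Deposited barcodes numbered 3247 to 5719 per library, and those with at least 500 genes and at most 20% mitochondrial UMIs were kept (46.7% to 98.9%). Low-quality barcodes and doublets can blur differences between cells; no doublets were removed, and the 5% of cells with most UMIs were left out as an alternative.

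UMIs were summed per library to CPM with exact Poisson 95% intervals, and ratios have exact conditional binomial intervals (scipy 1.17.1). At 1 library per group there are no p-values. A count of 3 UMIs equals 0.0167 to 0.0339 CPM by library. The call was run on simulated counts with Poisson error only, and it recovered all 200 changed genes in each comparison with 0 false calls. These counts hold no variation between replicate libraries, so the run cannot show how the calls hold up against it. Alternatives covered cell filters, edgeR 4.0.16 TMM and median-of-ratios scaling, pseudocount, floor, equal weight per cell, thinning and the transcript length trend (GENCODE vM21 lengths, 20 bins). Gene positions are from GENCODE vM21 and promoters from RefSeq GRCm38.p6.

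All members are named. From each wider list, the genes named are among the 4 with the largest ratios, with levels of others by role. The members, the lists and the alternatives were chosen with earlier results of these data known. A gene of the receptor and signalling list is not reported here, nor are counts over that list.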

Additional observations from a re-analysis of the deposited data

Results flagged for a closer look

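Ifi204 was looked at again because its ratio of P-G3 over untreated pointed in opposite directions on the 2 days, with both counting intervals away from 0. The log2 ratio was 0.40 on day 3 and -0.28 on day 6. The difference between the days was not tested, since each rests on 1 library per arm. The day 6 value lies close to the median of all genes, -0.34, and after subtracting the length trend the values were 0.53 on day 3 and -0.03 on day 6. With median-of-ratios scaling the day 6 ratio was 0.10.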

How the results depend on the processing

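The 6 calls of Ifi204, Ifi207 and Ifi27l2a among untreated days kept their direction and stayed past 2-fold in all 10 alternatives for ratios. Counts of members called lower on day 3 over day 0 were 2 in place of 1 with TMM scaling, median-of-ratios scaling, a pseudocount of 0.1 CPM or the length trend removed (Bst2 added), and 3 without the cells of 5 or more Ifit1 UMIs, an alternative chosen after seeing the data (Bst2 and Isg15 added). Counts lower on day 6 over day 0 were 2 in place of 1 with all barcodes, both scalings, the 0.1 CPM pseudocount or the length trend removed (Isg15 added). With no floor, 2 were lower on day 6 over day 3 (Ifit1 added). With cells weighted equally, Ifi27l2a was called lower on day 6 with P-G3, a count of 1 in place of 0, at a log2 ratio of -1.03. Apart from where an alternative's construction shows it, the cause was not tested. With P-G3, no other setting called a member. In the split by adipocyte genes on day 3 with P-G3, 2 members in place of 4 were called lower without the cells of 5 or more Ifit1 UMIs (Ifit1 and Isg15 lost), and in the split by G2/M genes 0 in place of 1, as also without the cell with most UMIs of each gene; both alternatives were chosen after seeing the data. Shares of cells depend on depth by construction and moved in 40 of 45 cases without thinning. Ifit1, Ifit3 and Irf7 are limited by their counts. No paired analysis was possible because each group is 1 library and the labels pair none.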
